A study of Mus musculus with 7 samples.

Results

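The transcription factors that set and keep the identity of pancreatic beta cells were followed in mice of the outbred ICR background at postnatal day 25. They are Pdx1, Mnx1, Nkx6-1, Nkx2-2, Neurod1, Pax6, Isl1, Mafa, Rfx6 and Glis3. The 10 genes were chosen by name, by matching the symbol of each array probe set in the platform annotation, with no measured value in the rule. Earlier results of these data were known when the 10 genes were chosen. They are 10 of 19938 genes with a probe set of their own, and each has 1 probe set. Every mouse carried an insulin-Cre transgene and the Rosa26-LSL-YFP reporter, so that recombination under the insulin promoter leaves a cell and its descendants fluorescent. In 3 mice, called weaned, early weaning took place at day 18, and 4 mice, called suckling, stayed with the dam. From each mouse 2000 to 6000 fluorescent cells were sorted, and their RNA was amplified and hybridised to 1 Affymetrix array. The reporter records past Cre activity and not present insulin expression, and sorted cells of a mouse were measured as 1 pool.

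These factors act as a network. Pdx1, Mnx1, Nkx6-1, Nkx2-2, Pax6 and Isl1 are homeodomain proteins, Neurod1 is a basic helix-loop-helix protein, Mafa is a basic leucine zipper protein, Rfx6 has a winged-helix domain and Glis3 has zinc fingers. Nkx6-1, Mnx1 and Mafa mark beta cells within the islet, whereas Pdx1, Neurod1, Nkx2-2, Pax6, Isl1 and Rfx6 also work in other islet endocrine cells. Together they bind the insulin gene and genes of glucose sensing and secretion, and Mafa comes up late, as beta cells mature after birth.

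All 10 factors gave signal well above that of silent genes. As a measure of silence served the 95th percentile of 1027 olfactory receptor genes, 3.27 log2 units, and the lowest value of any of the 10 factors on any array lay 1.94 log2 units above it, for Mnx1. The sorted cells also carried transcripts that these factors are known to control, such as Iapp, which encodes amylin (12.5 ± 0.09 log2 units, SD, n = 3 weaned, and 12.5 ± 0.05, n = 4 suckling), and G6pc2, an islet glucose-6-phosphatase (12.1 ± 0.13 and 12.1 ± 0.06). Of 14 measured markers of alpha, delta, gamma and epsilon cells 11 were above the silent level as well, so the levels below are those of the sorted pool. In such a pool fewer cells of a type and less RNA per cell cannot be told apart.

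None of the 10 factors passed the test over all genes. By limma, adjusted p over all 19938 genes ran from 0.486 for Mnx1 to 0.966 for Pax6, against a threshold of 0.05 that 3 genes, or 0.015% of those tested, passed. Before adjustment, 2 of the 10 had p under 0.05, Mnx1 and Pdx1, both higher in weaned mice. By the same rule 7.58% of all genes were called, 4.39% as higher and 3.19% as lower. The higher share of these calls was 57.9%, and it was 73.2% with each array centred on its median, where 9 of the 10 factors again had positive differences. For 9 of the 10 the weaned mean exceeded the suckling mean, and for Mafa it was below it, while 50.1% of all genes lay on the higher side. Of all genes only 13975 were above the silent level in either group, and the share among these was not taken. The 10 log2 differences had a median of 0.13, where that of all genes was 0.00047. The members were chosen with earlier results of these data known, and no test of the list was made.

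**Figure D1:**
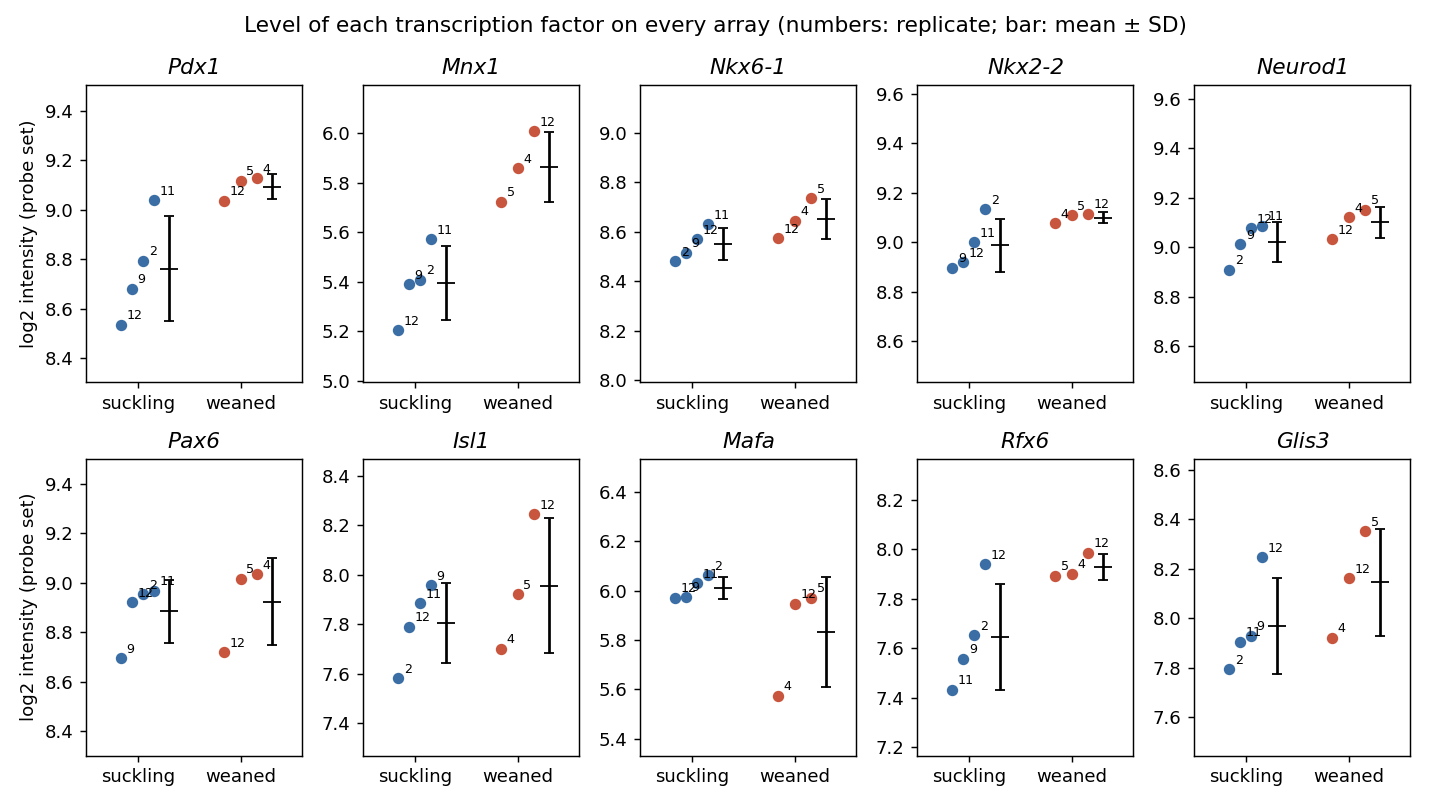
Level of each of the 10 transcription factors on every array, in log2 intensity of its probe set, with 4 suckling arrays (blue) and 3 weaned arrays (red); numbers give the replicate, bars the mean ± SD, and every panel spans 1.2 log2 units. Only in the Mnx1 panel do all 3 weaned points lie above all 4 suckling points, and in the Mafa panel 1 weaned array lies far below the other 6.

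Mnx1 showed the widest difference of the 10. This homeodomain factor holds beta cells to their fate and restrains delta-like programmes. Weaned replicates 4, 5 and 12 read 5.86, 5.72 and 6.01 log2 units, with 5.41, 5.39, 5.57 and 5.20 on suckling replicates 2, 9, 11 and 12. All weaned arrays were above all suckling arrays, a separation in this direction that 3.90% of all genes showed. The group means were 5.86 ± 0.14 (SD, n = 3) and 5.39 ± 0.15 (n = 4), a log2 difference of 0.47 (SE 0.13, 95% interval 0.19 to 0.75), or 1.39-fold. By limma the unadjusted p was 0.00439 and the adjusted p 0.486. The exact two-sided permutation p was 0.0286, the smallest that the 35 splits of 7 arrays into 3 and 4 allow, and 3.85% of all genes reached 0.05 or less in that test. The spread of Mnx1 within groups was small for its level, with a residual SD of 0.15 against a median of 0.22 among the 2721 genes within 0.5 log2 units of its mean.

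Pdx1, the factor that specifies the pancreas and later activates insulin transcription, came next. Weaned replicates 4, 5 and 12 gave 9.13, 9.12 and 9.04 log2 units, a narrow range. On suckling replicates 2, 9, 11 and 12 it measured 8.79, 8.68, 9.04 and 8.54, so the suckling mice were more scattered. Suckling replicate 11 reached the weaned range, at 9.039 against 9.036 on the lowest weaned array, and the other 3 suckling arrays lay below it. The means were 9.09 ± 0.05 (SD, n = 3) and 8.76 ± 0.21 (n = 4), with a difference of 0.33 log2 units (SE 0.13, interval 0.030 to 0.63), or 1.26-fold. By limma the unadjusted p was 0.0344 and the adjusted p 0.634, and the exact two-sided permutation gave p = 0.0857. Without suckling replicate 12 the difference was 0.26, and without suckling replicate 11 it was 0.42. With 1 array left out in turn, the unadjusted p of Pdx1 was under 0.05 only in the fit without suckling replicate 11.

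The stretches upstream of Pdx1 and Mnx1 are shown because these genes had the smallest p values of the 10. Both are the 250 bases before the RefSeq transcription start in build GRCm38.p6, on chromosome 5, read 5′ to 3′ on the gene's own strand. Capitals mark the 4-letter core TAAT, searched on both strands, that many homeodomain proteins bind, and the E-box CANNTG that basic helix-loop-helix proteins such as Neurod1 bind. The Pdx1 stretch is chr5:147269847-147270096 on the plus strand and the Mnx1 stretch chr5:29478471-29478720 on the minus strand.
Pdx1: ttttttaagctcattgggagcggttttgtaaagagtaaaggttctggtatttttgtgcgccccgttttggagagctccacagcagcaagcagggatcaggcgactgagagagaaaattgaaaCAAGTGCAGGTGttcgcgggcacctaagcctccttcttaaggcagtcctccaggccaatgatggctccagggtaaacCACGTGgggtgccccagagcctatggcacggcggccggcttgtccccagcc
Mnx1: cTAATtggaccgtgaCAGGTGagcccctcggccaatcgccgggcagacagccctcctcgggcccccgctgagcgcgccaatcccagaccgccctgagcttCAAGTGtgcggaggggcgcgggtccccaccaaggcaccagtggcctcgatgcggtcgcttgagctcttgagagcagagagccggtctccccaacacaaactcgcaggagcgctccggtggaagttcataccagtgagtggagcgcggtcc

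The Pdx1 stretch holds 3 E-boxes. The first pair stand side by side, starting 128 and 122 bases before the start, and the third, CACGTG, starts 51 bases before it. It holds no TAAT. The Mnx1 stretch holds 2 E-boxes, starting 235 and 150 bases before the start, and 1 TAAT at 249 bases. No E-box overlaps a TAAT in these windows. Of the 10 factors 9 have a promoter entry, with 10 entries in all since Pax6 has 2. An E-box occurs in 7 of the 10 entries and in 66.2% of 32841 promoters of all genes, and TAAT in 6 of the 10 entries and in 54.9% of all promoters. CACGTG occurs in the entries of Pdx1 and Nkx2-2 and in 6.02% of all promoters. These matches describe letters, and binding was not measured here.

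Rfx6, which acts upstream of insulin production and keeps calcium channel genes on, had the third smallest p. Weaned replicates 4, 5 and 12 gave 7.90, 7.89 and 7.99 log2 units, with 7.65, 7.56, 7.43 and 7.94 on suckling replicates 2, 9, 11 and 12. The weaned arrays lay close together and suckling replicate 12 lay among them, while the other 3 suckling arrays were lower. The difference was 0.28 log2 units (SE 0.13, interval -0.021 to 0.58), or 1.22-fold, with an adjusted p of 0.674 by limma and an exact two-sided permutation p of 0.114. It was 0.38 without suckling replicate 12 and 0.21 without suckling replicate 11.

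**Figure D2:**
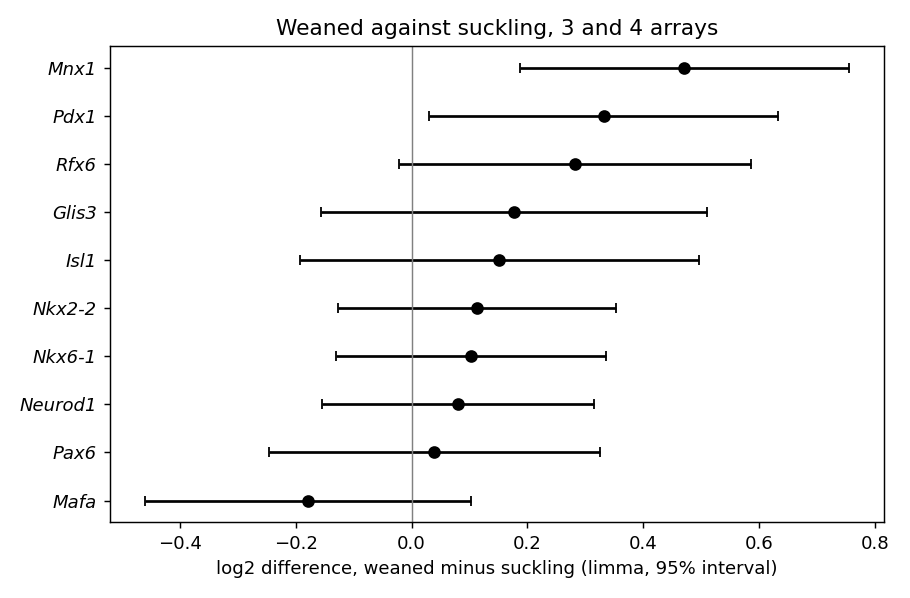
Log2 difference, weaned minus suckling, of each of the 10 factors with its 95% interval by limma (3 weaned and 4 suckling arrays), ordered by size. The intervals of Mnx1 and Pdx1 lie above 0 before adjustment, those of the other 8 include 0, and Mafa is the 1 factor with a negative difference.

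Nkx6-1, Nkx2-2 and Neurod1 were the steadiest of the 10 across mice. Nkx6-1 represses the programmes of other islet cells and supports insulin processing. Weaned arrays gave 8.57 to 8.74 log2 units and suckling arrays 8.48 to 8.63, which overlap, with a difference of 0.10 (SE 0.10, interval -0.13 to 0.34). Nkx2-2, which keeps beta cells from turning on genes of other endocrine types, ran from 9.08 to 9.12 on the weaned arrays and from 8.90 to 9.13 on the suckling arrays. Suckling replicate 2 was the highest of all 7 arrays for Nkx2-2, and the difference was 0.11 (SE 0.11, interval -0.13 to 0.35). Neurod1, an activator of the insulin gene, ran from 9.03 to 9.15 on the weaned arrays and from 8.91 to 9.09 on the suckling arrays, with a difference of 0.080 (SE 0.10, interval -0.15 to 0.31). Their residual SDs of 0.072, 0.084 and 0.075 log2 units were smaller than those of most genes of like level, since only 6.03%, 14.3% and 9.31% of such genes had a smaller one. As fold changes, the intervals of Nkx6-1, Nkx2-2 and Neurod1 reached from 0.913 to 1.26, 0.916 to 1.28 and 0.898 to 1.24, so larger differences lie outside them.

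Pax6 and Isl1 differed more between mice than between the groups. Pax6 is a paired-box homeodomain factor of islet endocrine cells. It read 9.03, 9.02 and 8.72 log2 units in weaned replicates 4, 5 and 12, with 8.95, 8.70, 8.97 and 8.92 on suckling replicates 2, 9, 11 and 12. Each group held 1 low array, weaned replicate 12 and suckling replicate 9, and the other 5 arrays lay within 8.92 to 9.03. The difference of 0.039 (SE 0.13, interval -0.25 to 0.32, limma adjusted p = 0.966) was negative once weaned replicate 4 (-0.016), weaned replicate 5 (-0.0077) or suckling replicate 9 (-0.024) was left out. Isl1, a LIM-homeodomain factor, measured 7.70, 7.92 and 8.24 on weaned replicates 4, 5 and 12, against 7.58, 7.96, 7.89 and 7.79 on suckling replicates 2, 9, 11 and 12. Its groups overlapped apart from weaned replicate 12, which was the highest, and the difference was 0.15 (SE 0.15, interval -0.19 to 0.50). Leaving out weaned replicate 12 brought the Isl1 difference to 0.0068, and leaving out weaned replicate 4 brought it to 0.28. Weaned replicate 12 was thus low for Pax6 and high for Isl1 and Mnx1.

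Glis3, a zinc-finger factor tied to neonatal diabetes and to insulin gene activity, also spread within both groups. In log2 units, weaned replicates 4, 5 and 12 gave 7.92, 8.35 and 8.16, with 7.79, 7.93, 7.90 and 8.25 on suckling replicates 2, 9, 11 and 12. Weaned replicate 4 lay among the lower suckling arrays and suckling replicate 12 among the higher weaned ones. The difference was 0.18 (SE 0.15, interval -0.16 to 0.51), and leaving out weaned replicate 5 or weaned replicate 4 gave 0.073 or 0.29.

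Mafa was the 1 factor with a lower mean in weaned mice. It is the activator of the insulin gene whose rise accompanies maturation. Weaned replicates 4, 5 and 12 gave 5.57, 5.97 and 5.95 log2 units, with 6.06, 5.97, 6.03 and 5.97 on suckling replicates 2, 9, 11 and 12. The suckling mice were within 0.1 log2 units of each other, and of the weaned mice only replicate 4 stood clearly below them. Weaned replicate 5 and suckling replicate 12 held the same deposited value of 62.7, which ties the groups at their border. The difference was -0.18 (SE 0.13, interval -0.46 to 0.10, limma adjusted p = 0.782), with an exact two-sided permutation p of 0.0571. Without weaned replicate 4 it was -0.050, and no other single array moved it by as much.

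**Figure D3:**
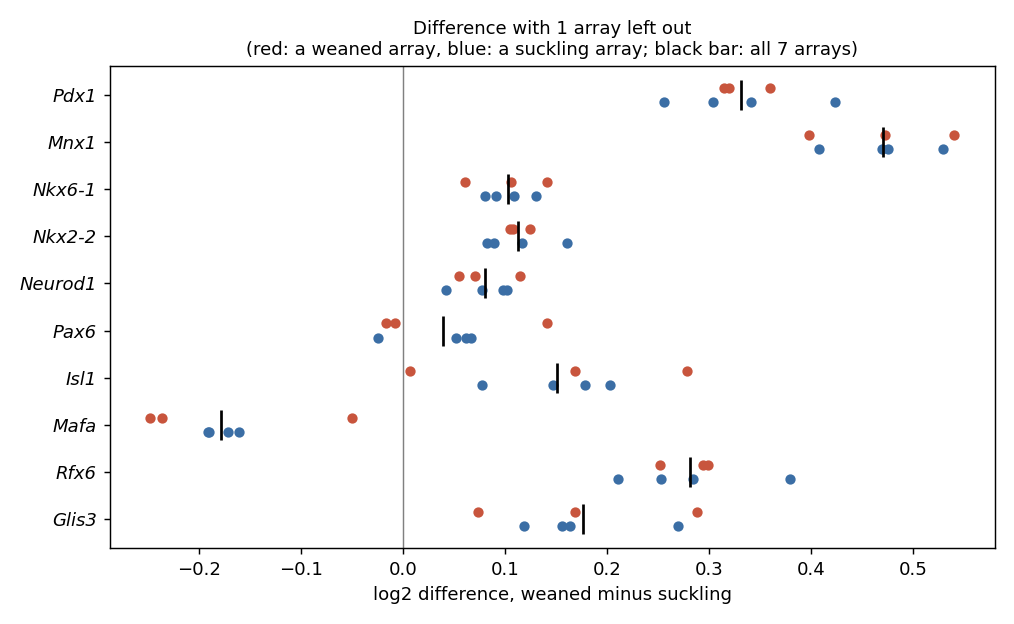
Log2 difference, weaned minus suckling, of each factor with all 7 arrays (black bar) and with 1 array left out in turn (red points without a weaned array, blue points without a suckling array). Mnx1 stays between 0.40 and 0.54, Pax6 crosses 0, the Isl1 point nearest 0 is the fit without weaned replicate 12, and the Mafa point nearest 0 is the fit without weaned replicate 4.

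Seen by array, the weaned mice had more of the high values. The highest of 7 values was on a weaned array for 8 of the 10 factors and the lowest on a suckling array for 9. The same shares over all genes were not taken, so these counts are description only. Weaned replicate 5 was above the gene's mean for all 10 factors. Averaged over the 10 factors, weaned replicates 4, 5 and 12 stood at 7.996, 8.10 and 8.08 log2 units, with 7.88, 7.86, 7.96 and 7.92 on suckling replicates 2, 9, 11 and 12. The means of the groups do not overlap, which is given as a description with no test.

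Markers of acinar cells, the enzyme-secreting cells around the islets, tended to be lower where these means were higher. Weaned replicate 12 was an exception, with a mean acinar level of 5.56 log2 units against 3.97 and 4.68 on suckling replicates 11 and 12. Of 30 measured acinar markers 29 had a lower mean in weaned mice. Their summed intensity ran from 647 to 2203 on the weaned arrays and from 919 to 6936 on the suckling arrays, with only Ptf1a not above the silent level. Suckling replicates 2 and 9 carried the most acinar signal and held the lowest value of 6 of the 10 factors. Suckling replicate 2 also held the highest value of 2 factors, Nkx2-2 and Mafa. The share of all genes with their lowest value on these arrays was not taken. With suckling replicates 11 and 12 alone as controls, the difference was 0.48 for Mnx1, 0.31 for Pdx1, 0.24 for Rfx6 and 0.070 for Glis3. With the acinar level as a covariate it was 0.49 for Mnx1, 0.27 for Pdx1, 0.29 for Rfx6, 0.018 for Neurod1 and -0.056 for Pax6, and Mnx1 was then the 1 factor of the 10 with an unadjusted p under 0.05. Of 23 measured immediate early genes, which dissociation can switch on, 14 lay higher by their means in weaned mice, with a summed intensity of 1760 to 3137 on the weaned and 1637 to 2084 on the suckling arrays and Nr4a3 not above the silent level. With that list's level as a covariate the difference was 0.51 for Mnx1, 0.29 for Pdx1 and 0.086 for Glis3. What part acinar RNA or dissociation has in the differences beyond these fits was not tested. The array descriptions carry L13 for the weaned and L14 for the suckling arrays, and the codes, with no meaning given, cannot be told apart from weaning.

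**Figure D4:**
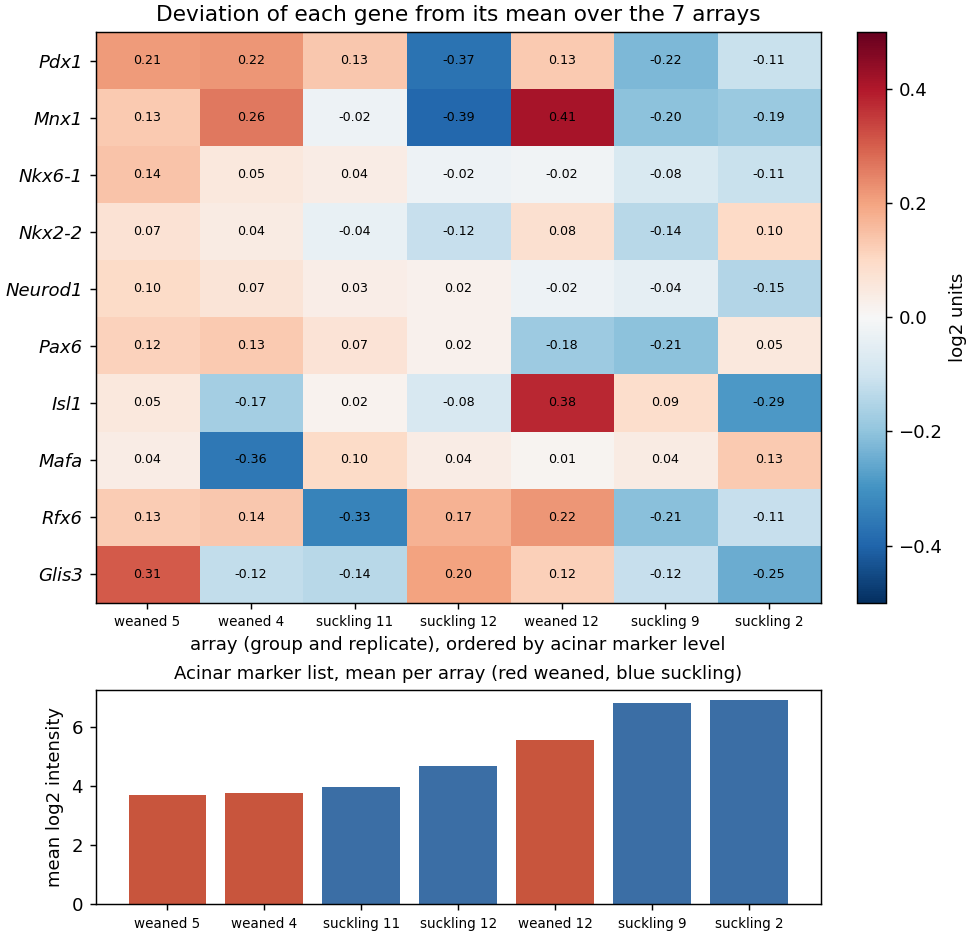
Upper panel, deviation of each factor from its own mean over the 7 arrays in log2 units (red above, blue below), with arrays ordered by acinar signal; lower panel, mean log2 intensity of the 30 acinar markers on the same arrays. Weaned replicates 5 and 4 have the least acinar signal and suckling replicates 9 and 2 the most, and Mnx1 is above its mean on all 3 weaned arrays.

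Markers of the other cells that a sort could hold were examined in the same way. Of the 14 measured markers of other islet endocrine cells 7 had a higher and 7 a lower mean in weaned mice, with a summed intensity of 15803 to 20572 on the weaned and 16251 to 21165 on the suckling arrays. Of these Ttr differed by 0.23 (SE 0.12) and Rbp4 by -0.22 (SE 0.14), and Cckbr, Nefl and Lepr were not above the silent level. Of 6 measured transcription factors of alpha, delta and gamma cells 4 had a higher mean, with Irx2 of alpha cells at -0.31 (SE 0.14) and Pou3f4 at -0.30 (SE 0.22). For duct cells 9 of 13 measured markers had a lower mean, with sums of 2421 to 2650 weaned and 2750 to 3162 suckling. Muc1 differed by -0.65 (SE 0.20), and Car2 was not above the silent level. Endothelial markers were lower in mean for 9 of 15 (sums 156 to 188 and 148 to 193), with Cldn5 at -0.71 (SE 0.26), Sox18 at 0.36 (SE 0.17), and Pecam1, Cdh5, Kdr, Tek, Emcn and Sox17 not above the silent level. Stellate and fibroblast markers were lower in mean for 13 of 17 (sums 178 to 206 and 203 to 238), with Vim at -0.35 (SE 0.10), and Pdgfra, Pdgfrb, Dcn, Lum, Acta2, Tagln, Rgs5 and Des not above the silent level. Leukocyte markers were lower in mean for 11 of 18 (sums 395 to 451 and 330 to 420), with Fcer1g at 0.48 (SE 0.12), Tyrobp at 0.30 (SE 0.11), and 11 of the 18, Ptprc among them, not above the silent level. Schwann and neuronal markers were lower in mean for 8 of 10 (sums 598 to 700 and 557 to 793), with Tubb3 at -0.79 (SE 0.36), and Foxd3, S100b and Gfap not above the silent level. Among acinar markers Bhlha15 differed by -0.71 (SE 0.17) and Pnliprp1 by -1.99 (SE 0.85), and among immediate early genes Nr4a1 by 0.38 (SE 0.18) and Jund by -0.37 (SE 0.18). No gene of these lists passed an adjusted p of 0.05 by limma.

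Around the 10 factors stand other transcription factors of islet and pancreas. Of 32 measured, 24 lay higher and 8 lower by their means in weaned mice, where 50.1% of all genes lay higher. The median of their log2 differences was 0.079. By limma 0 passed an adjusted p of 0.05, while 2, both higher, had p under 0.05 before adjustment, where 7.58% of all genes did. Hnf4g, a nuclear receptor, read 4.81, 4.74 and 4.35 log2 units in weaned replicates 4, 5 and 12 against 4.14, 4.08, 4.33 and 4.03 on suckling replicates 2, 9, 11 and 12. Its groups did not overlap, and it differed by 0.49 (SE 0.14, adjusted p = 0.518 by limma). Tcf7l2, the effector of Wnt signalling linked to type 2 diabetes, differed by 0.43 (SE 0.18, adjusted p = 0.638 by limma) with overlapping groups. Foxa2, a pioneer factor upstream of Pdx1, differed by 0.13 (SE 0.15), Hnf4a by -0.074 (SE 0.19) and Insm1, which cooperates with Neurod1, by -0.050 (SE 0.16). The endocrine progenitor factors Neurog3 and Pax4 were near the silent level, with group means of 3.58 and 3.52 for Neurog3 and 3.46 and 3.38 for Pax4 in weaned and suckling mice.

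Among binding partners and coregulators of the 10 factors, 21 of 30 measured lay higher and 9 lower by their means, with a median of 0.056. Of all genes 50.1% lay higher. By limma 0 passed an adjusted p of 0.05, and Ldb1, Pcif1 and Tcf4 had p under 0.05 before adjustment, all higher in weaned mice. The share of all genes with such a p was 7.58%. The groups did not overlap for 4 of the 30, Ldb1, Pcif1, Ssbp3 and Chd4, all on the higher side, against 3.90% of all genes. Ldb1, the LIM-domain binder that Isl1 works through, read 7.69, 8.03 and 7.88 log2 units in weaned replicates 4, 5 and 12, with 7.55, 7.33, 7.55 and 7.59 on suckling replicates 2, 9, 11 and 12. It differed by 0.36 (SE 0.12, adjusted p = 0.577 by limma). Pcif1, which is in this list by its symbol, differed by 0.37 (SE 0.15, adjusted p = 0.637 by limma), with suckling replicate 2 the lowest array at 5.44. That symbol has also been used for a different protein, and whether this probe set measures a partner of Pdx1 was not tested. Tcf4, Ssbp3 and Chd4 are named here after their values were seen. Ssbp3, a partner of Ldb1, differed by 0.23 (SE 0.11), and Tcf4, a dimer partner of basic helix-loop-helix factors, by 0.30 (SE 0.13).

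Genes that the 10 factors are known to act on showed no common direction. Of 36 measured, 16 lay higher and 20 lower by their means, with a median of -0.015. By limma 0 of them passed an adjusted p of 0.05 and 0 had p under 0.05 before adjustment, where 7.58% of all genes did. The insulin gene Ins2 differed by -0.023 (SE 0.14, interval -0.33 to 0.28), Iapp by -0.024 (SE 0.10, interval -0.25 to 0.21) and G6pc2 by 0.0018 (SE 0.11, interval -0.24 to 0.25). The Ins2 probe set had group means of 8.25 log2 units weaned and 8.27 suckling, below those of Pdx1 and far below those of Iapp. How well this probe set follows insulin mRNA was not tested. Slc2a2, which encodes the glucose transporter GLUT2, differed by 0.047 (SE 0.11, interval -0.20 to 0.29) and Ucn3, a hormone of mature beta cells, by -0.033 (SE 0.13, interval -0.33 to 0.26). The smallest p values were those of Ppp1r1a, an inhibitor of protein phosphatase 1 (0.22, SE 0.10, groups not overlapping), and Gipr, the receptor of the incretin GIP (-0.33, SE 0.16).

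**Figure D5:**
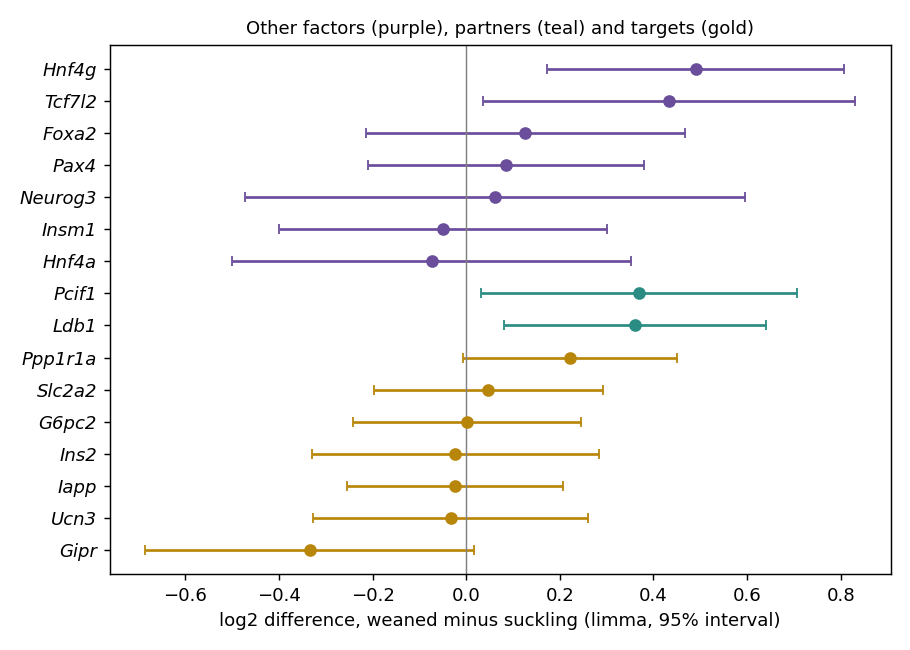
Log2 difference, weaned minus suckling, with its 95% interval by limma for other transcription factors (purple), binding partners (teal) and target genes (gold) named in the text. Tcf4, Ssbp3 and Chd4 are not drawn. Of the genes drawn, the intervals of Hnf4g, Tcf7l2, Pcif1 and Ldb1 lie above 0 before adjustment. Those of the insulin gene and the other targets include 0.

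The genes whose profile over the 7 arrays came closest to Mnx1 were Fam160b2, 1810037I17Rik and Dusp6, with a root mean square difference of 0.069, 0.075 and 0.076 log2 units once each gene was centred on its mean. Closest to Pdx1 were Ptpn18, Gpalpp1 and Slc48a1, at 0.061, 0.062 and 0.063. Among the 10 factors Mnx1 and Pdx1 were each other's nearest, at 0.13. With 19938 genes and 7 arrays, close profiles are easily found.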

How the data were processed

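Sorted fluorescent islet cells of 7 mice were measured on 1 array each. The deposited intensity values, 1 per probe set and array, were made by the authors with RMA and Partek 6.6, per the submitters' processing notes, which give no settings. They range from 1.45 to 12755, which is linear, and were converted to log2. Array medians lie between 14.1 and 14.9. All 7 columns were used.

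Of 35556 probe sets, 21789 carry 1 gene symbol, 1621 several and 12146 none, and 21698 were matched by gene ID to RefSeq names of GRCm38.p6. The brightest probe set stood for a gene. Groups were compared with limma 3.58.1 in R 4.3.3 over all 19938 genes, two-sided, with Benjamini-Hochberg adjustment and no covariate. Intervals are 95% for single genes, unadjusted. Single values were also tested by exact permutation. With 7 arrays the median standard error of a difference was 0.14. The fit was tested on simulated data.

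The members, the 12 other lists and the rules were chosen with earlier results of these data known. Besides the members, the text names the 2 genes of smallest p in each list, fixed targets and factors, and the 3 closest profiles for the 2 members of smallest p. Promoter sequences are from RefSeq, and the array annotation names no build. Listed genes with no probe set of their own are not analysed here. The replicates are taken as separate mice, since the labels give each array its own group and replicate number.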

Additional observations from a re-analysis of the deposited data

Results flagged for a closer look

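In Pax6, suckling replicate 9 stood apart from the other suckling arrays, at 8.70 log2 units against 8.92 to 8.97. It was the only such array among the 20 ends examined, the low and high ends of the suckling group for the 10 factors. Chance marks about 1 in 20 groups. The weaned group was not among these 20. In it Pax6 read 8.72 on replicate 12 against 9.03 and 9.02, and Mafa 5.57 on replicate 4 against 5.97 and 5.95.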

How the results depend on the processing

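Adjusted p stayed above 0.05 for all 10 factors in every fit tried, and the direction of 9 of them held in all 20 alternatives. Some of these alternatives leave a difference unchanged by construction, so its direction could not turn there. They are the trend with robust prior, leaving out low genes, averaging or keeping all probe sets, and exact permutation. Mnx1 ranged from 0.40 to 0.54, with adjusted p of 0.306 to 0.902, and had an unadjusted p under 0.05 in every fit. Its 0.47 also reached p = 0.0286 by exact permutation, unadjusted. Pax6 turned to -0.056 with the acinar covariate, -0.016 with the immediate early covariate and -0.022 with suckling replicates 11 and 12 as the only controls, and ran from -0.024 to 0.14 with 1 array left out. The median of the 10 ran from 0.091 to 0.20 with 1 array left out. At an unadjusted p under 0.05 there were 2 factors past the threshold, Mnx1 and Pdx1. Of 20 alternatives, 9 left 1, Mnx1: the acinar and immediate early covariates, the fits without weaned replicate 4, 5 or 12 or suckling replicate 2 or 9, suckling replicates 11 and 12 as the only controls, and exact permutation. The trend with robust prior, centring on medians and array weights gave 3, with Rfx6 added. Without suckling replicate 12 the 2 were Mnx1 and Rfx6 (limma, unadjusted p = 0.0103).

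Over all genes, 3 passed an adjusted p of 0.05, and 9 with an intensity trend and robust prior, 5 with quantile normalization, 6 with arrays centred on their medians, 7 and 8 without genes below the 25th percentile or the median, and 5 with probe sets averaged within genes. With 1 array left out 1 to 3 passed, and 0 with suckling replicates 11 and 12 as the only controls, a fit with fewer arrays. At an adjusted p of 0.1 there were 7 and at an unadjusted p under 0.05 there were 1512. Centring on medians moved the split at that level from 875 higher and 637 lower to 1184 and 434 and the median of all genes by 0.035, with 9 of the 10 factors still higher. The causes were not tested. No paired analysis was possible because the groups share only replicate number 12.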
